A study of Mus musculus with 2 samples.

Results

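The smooth muscle contractile genes Acta2, Tagln, Myl9, Tpm1, Tpm2, Cnn1, Myh11, Des, Actg2 and Lmod1 were followed by name through single-cell RNA sequencing of injured mouse lung. They are 10 of the 27998 genes in the deposited tables, and each symbol matched 1 row. Mice of the navitoclax group were C57Bl6, received bleomycin on day 1 and were then dosed with navitoclax (ABT-263) between days 15 and 20. Navitoclax blocks BCL-2, BCL-XL and BCL-W, proteins that hold back apoptosis. Mice of the vehicle group were C57Bl6, received bleomycin on the same day and were given vehicle. All lungs were thus bleomycin-injured, there was no uninjured lung, and all were taken on day 21. Sorted epithelial and stromal cells were pooled in equal parts before capture, so the number of stromal against epithelial cells is set by the mixing. Each group was 1 library, the sources used here do not state how many mice it pools, and no difference has a replicate check. Intervals are 95% intervals of counting error alone.

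Contraction in smooth muscle runs on filaments of actin that are pulled by myosin. Acta2 and Actg2 encode the smooth muscle actins, Tpm1 and Tpm2 the tropomyosins that lie along the filament, and Tagln, Cnn1 and Lmod1 proteins that bind it. Myh11 encodes the smooth muscle myosin heavy chain, Myl9 a regulatory light chain, and Des the intermediate filament desmin. Most of these genes are controlled by serum response factor (SRF) with its coactivators of the myocardin family. In fibrotic lung, fibroblasts that gain Acta2 are known as myofibroblasts. In healthy lung the genes are best known from airway and vascular smooth muscle and from pericytes. Strictly, mural cells are the smooth muscle cells and pericytes of vessels. Here the name is used for a cluster with smooth muscle and pericyte markers, in which airway and vascular smooth muscle were not told apart.

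SRF binds a short element named the CArG box, and the sequences upstream of these genes were searched for it. A part of SRF in any difference between the libraries was not tested. Of the 10 members, 7 had an entry in the RefSeq promoter table (GRCm38.p6), and the 250 bases before the annotated start were searched. Tagln, Myh11 and Actg2 had no entry and were not searched. A strict CArG box (CC, a run of A or T, GG, a palindrome that reads alike on both strands) was found in 1 member, Myl9, against 1.47% of 32851 promoters of the same length. With 1 G or C allowed in the run, 2 members had a match, Acta2 and Myl9, against 8.59% of promoters. The stretch before Acta2 lies on the minus strand at chr19:34255374-34255623 and that before Myl9 on the plus strand at chr2:156775214-156775463, with the matches in capitals.
Acta2: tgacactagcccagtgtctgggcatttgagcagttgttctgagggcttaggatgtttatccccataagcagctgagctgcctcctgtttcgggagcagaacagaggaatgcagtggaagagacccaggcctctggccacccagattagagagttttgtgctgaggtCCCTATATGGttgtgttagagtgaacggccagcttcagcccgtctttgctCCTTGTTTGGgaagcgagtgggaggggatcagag
Myl9: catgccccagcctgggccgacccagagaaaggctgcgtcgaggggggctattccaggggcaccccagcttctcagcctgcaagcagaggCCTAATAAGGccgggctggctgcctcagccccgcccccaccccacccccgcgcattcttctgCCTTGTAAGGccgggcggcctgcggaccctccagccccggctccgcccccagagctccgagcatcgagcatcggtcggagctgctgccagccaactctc
The matches begin 84 and 34 bases upstream of the RefSeq start of Acta2, and 161 and 99 bases upstream of that of Myl9, where the first is the strict box. The RefSeq starts differ from the GENCODE gene bounds given below. Against those bounds most of the Acta2 stretch, with both matches, lies inside the gene. The stretches of Myl9, Tpm1, Tpm2, Cnn1 and Lmod1 overlap their genes in part. The upstream stretches of Tpm1, Tpm2, Cnn1, Des and Lmod1 held no match in this window.

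After filtering, 6228 navitoclax cells and 7174 vehicle cells were kept, from 98517048 and 97958947 UMIs (molecules counted) in the libraries. Cells were grouped by markers that include none of the 10 genes, and neither these nor related contractile genes were used for clustering. Pooled fibroblasts were 2970 navitoclax cells and 3560 vehicle cells. Among them, 1083 and 1471 were alveolar-like, 247 and 350 fibrotic-like, 284 and 327 adventitial-like, and 246 and 225 peribronchial-like, the last a class marked by Hhip and Aspn. Mural cells were 38 in the navitoclax library and 45 in the vehicle library, all in 1 cluster. A gate on marker counts, set after the data were seen, put 30 and 33 of them on the smooth muscle side. It put 8 and 11 on the pericyte side, too few for a ratio, and 21 of the 83 mural cells lay within 5 marker counts of the gate. Levels are in CPM (UMIs of a gene scaled to a common library total). Smooth muscle markers summed to 2932 CPM in navitoclax mural cells and to 2888 CPM in vehicle mural cells, with 7 of 11 detected and 2 at 0 in each. Pericyte markers summed to 2083 and 1909 CPM in these cells, with 9 of 11 detected in each library. The smooth muscle sum was nearly as high in peribronchial-like fibroblasts, at 2416 and 2276 CPM, though with 3 of 11 detected. In mural cells endothelial and immune markers had 0 detected in either library. The libraries shared 20 barcode sequences. The heat shock gene Hspa1a stood apart between the libraries, at 797 CPM in navitoclax fibroblasts and 83.0 CPM in vehicle fibroblasts. The gap was not limited to fibroblasts. Hspa1a had 566 and 23.9 CPM in AT2-like cells (alveolar type II-like), 724 and 160 CPM in mural cells, and 573 and 38.0 CPM over all cells. Its part in the results below was not tested.

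The mural cluster held most of the RNA of several members although it was a small share of the cells. Smooth muscle-gated mural cells were 0.482% of the navitoclax cells and 0.460% of the vehicle cells. They held 51.5% of the Acta2 UMIs in the navitoclax library and 53.1% in the vehicle library. For Myh11 the shares were 67.4% and 61.9%, and for Cnn1, calponin, 63.9% and 64.6%. For Actg2, peribronchial-like fibroblasts held 47.0% and 49.5% of the UMIs in the navitoclax and vehicle libraries, against 45.3% and 38.9% in smooth muscle-gated cells. For Lmod1 they held 37.5% and 37.4%, against 33.3% and 31.7%. Tagln and Des were spread more widely, since alveolar-like fibroblasts held 30.1% and 25.7% of Tagln UMIs and 30.6% and 35.9% of Des UMIs. Tpm1 was mostly epithelial, with 64.1% of its UMIs in epithelial cells of the navitoclax library and 65.6% in those of the vehicle library. A cluster with both epithelial and mesenchymal markers, of 37 navitoclax and 33 vehicle cells, was left out of the classes and held 18 and 122 UMIs of Acta2.

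**Figure D1:**
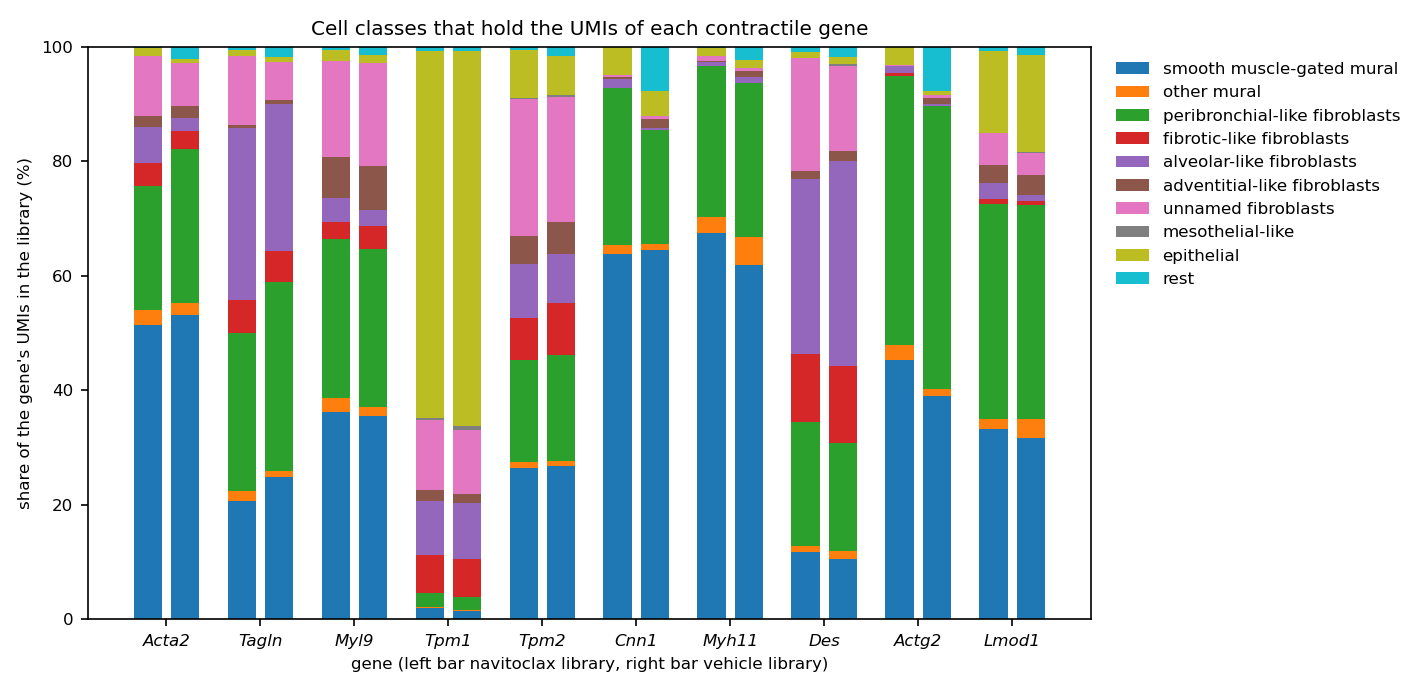
Share of each gene's UMIs (y axis, percent of all UMIs of that gene in the library) by cell class, with the left bar of each pair for the navitoclax library and the right bar for the vehicle library. Smooth muscle-gated mural cells hold 51.5% and 53.1% of Acta2 UMIs, and epithelial cells hold 64.1% and 65.6% of Tpm1 UMIs.

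Across classes, all 10 genes were highest in smooth muscle-gated mural cells in both libraries, and 9 of them were next highest in peribronchial-like fibroblasts among the named fibroblast classes. Myh11, the myosin motor, stood at 2212 CPM in navitoclax and 2022 CPM in vehicle smooth muscle-gated cells, at 129 and 150 CPM in peribronchial-like cells, and had no UMI in fibrotic-like cells of either library, which allows up to 1.09 CPM in navitoclax and 0.902 CPM in vehicle cells. Actg2, the enteric smooth muscle actin, stood at 768 and 644 CPM in smooth muscle-gated cells and at 119 and 139 CPM in peribronchial-like cells. Alveolar-like cells held 5 and 1 Actg2 UMIs. Tpm1 differed in order, since among the named fibroblasts it was highest in fibrotic-like cells, at 616 CPM in the navitoclax library and 528 CPM in the vehicle library. Peribronchial-like cells had 392 and 453 CPM of Tpm1, and ciliated-like cells had 389 and 355 CPM. The intervals of the peribronchial-like and ciliated-like values overlap in the navitoclax library.

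**Figure D2:**
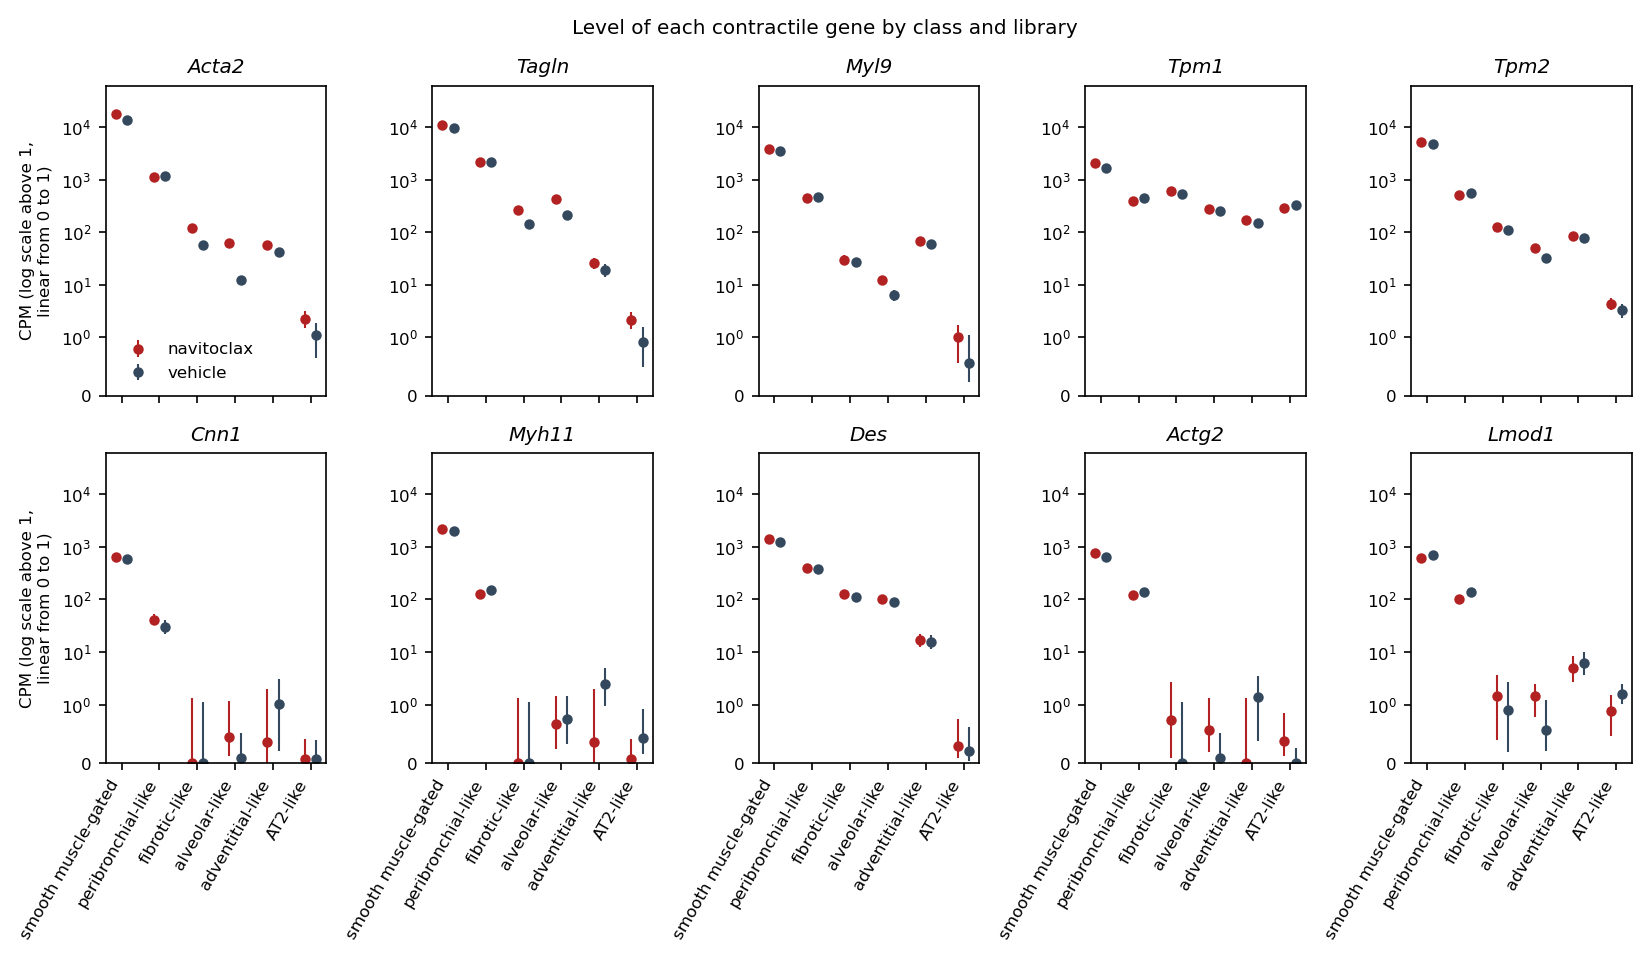
Level of each gene in CPM (y axis, log scale above 1 CPM and linear below) in 6 cell classes, navitoclax (red, left) beside vehicle (dark, right), with exact Poisson intervals of counting error. Acta2 is at 17746 and 13465 CPM in smooth muscle-gated cells, and at 2.22 and 1.13 CPM in alveolar type II-like (AT2-like) cells.

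Shares of cells with a UMI were read after each cell was thinned to 2000 UMIs, which leaves out shallower cells (280 navitoclax and 311 vehicle fibroblasts). Acta2 was seen in 100% of 29 smooth muscle-gated cells in each library. In peribronchial-like cells it was seen in 52.6% (46.0 to 59.1) of navitoclax cells and 63.9% (57.2 to 70.3) of vehicle cells. Without thinning these were 75.2% and 80.0%, at median depths of 6486 and 5539 UMIs. In AT2-like cells, which should lack the gene, 0.146% of 684 navitoclax cells and 0 of 799 vehicle cells had an Acta2 UMI after thinning, and 4.08% and 0.875% did before it, at median depths of 18279 and 17044 UMIs. Cnn1 was seen in 62.1% of navitoclax and 55.2% of vehicle smooth muscle-gated cells, and in 3.85% and 6.39% of peribronchial-like cells. The ciliated-like cells, which should lack it, were at 0.279% and 0.617%.

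**Figure D3:**
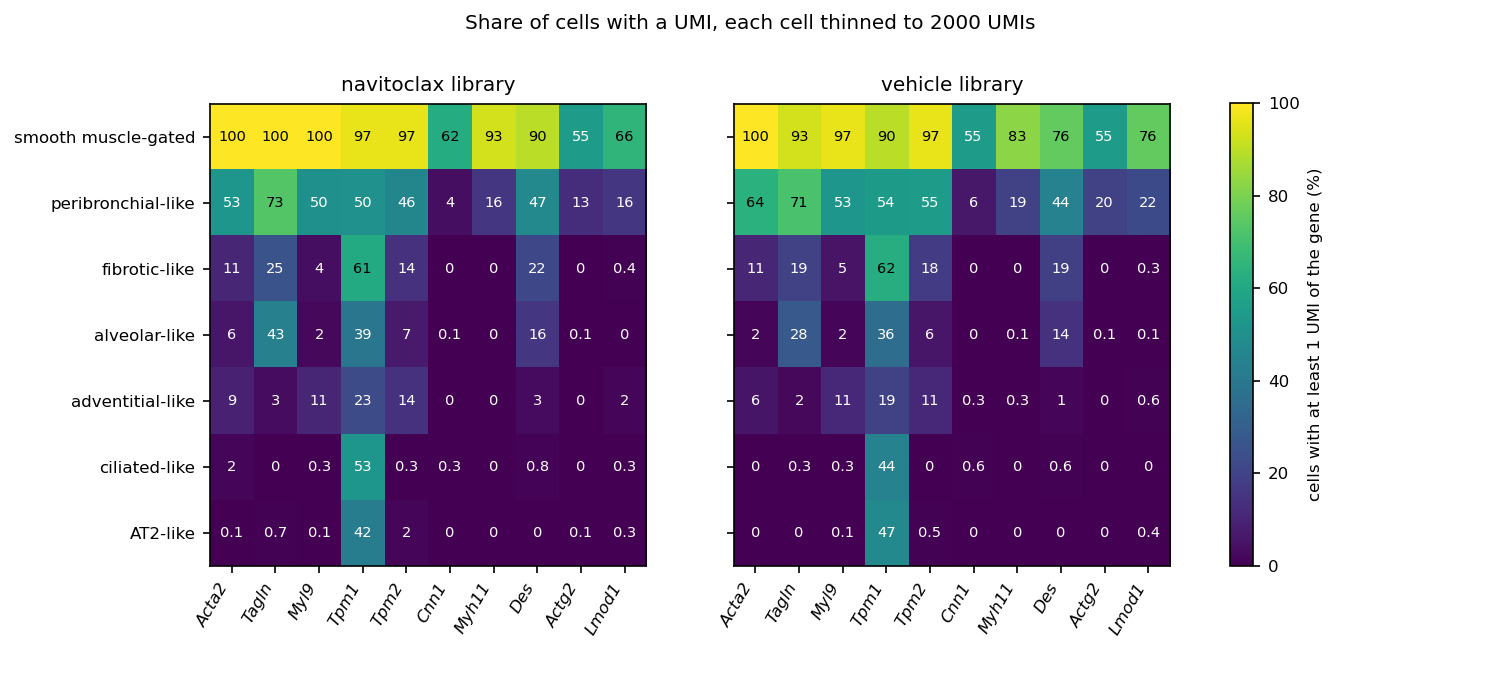
Percent of cells with at least 1 UMI of each gene (x axis) in 7 classes (y axis), each cell thinned to 2000 UMIs, with the navitoclax library on the left and the vehicle library on the right. Acta2 is in 100% of smooth muscle-gated cells of both libraries and in 0.146% and 0 of AT2-like cells.

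Few fibroblasts carried the whole set. At 2000 UMIs a cell, at least 5 of the 10 genes were seen in 83 of 2690 navitoclax fibroblasts (3.09%) and 97 of 3249 vehicle fibroblasts (2.99%). Of these cells, 75 in the navitoclax library and 92 in the vehicle library were peribronchial-like, which is 32.1% and 42.0% of that class. In alveolar-like fibroblasts the counts were 1 of 1056 and 0 of 1412. Of smooth muscle-gated mural cells, 29 of 29 and 28 of 29 held at least 5. Fibroblasts with none of the 10 genes were 26.9% of navitoclax cells and 33.8% of vehicle cells.

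The comparison of treatments asks how the genes stood after BCL-2 family inhibition in the fibrotic lung. In pooled fibroblasts, 4 members had a CPM at least 25% higher in the navitoclax library (Acta2, Tagln, Tpm2 and Cnn1), and for 0 was the vehicle CPM higher by that much. With no test, a gene past this fold is called higher or lower below. All 10 members passed the minimum of 100 UMIs there. The background among 11466 genes was 6.66% higher and 4.33% lower at this fold. The median log2 difference was 0.30 over the members and 0.00 over all genes tested.

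The actin Acta2 (chromosome 19, 34241090 to 34255590, minus strand, GENCODE on GRCm38) had 153 CPM in navitoclax fibroblasts and 91.2 CPM in vehicle fibroblasts, a ratio of 1.67 (1.59 to 1.76). Much of this RNA lay in peribronchial-like cells, which held 48.9% of the navitoclax and 64.1% of the vehicle fibroblast UMIs of Acta2. Without them, an alternative chosen after seeing the data, the ratio was 2.42. It was 2.50 when cells with UMIs of 2 or more mural markers were left out instead, and 1.42 when cells were thinned to 2000 UMIs.

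Tagln (chromosome 9, 45929619 to 45936058, minus strand) encodes transgelin, an actin-binding protein and an early smooth muscle marker. It had 396 CPM in navitoclax fibroblasts and 232 CPM in vehicle fibroblasts, a ratio of 1.71 (1.66 to 1.76). A UMI of Tagln was in 32.7% of navitoclax fibroblasts and 22.2% of vehicle fibroblasts after thinning, and in 51.2% and 39.7% before it. In AT2-like cells the thinned shares were 0.731% and 0, far below both.

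Tpm2 (chromosome 4, 43514711 to 43523765, minus strand), the beta-tropomyosin, had 122 and 95.4 CPM in navitoclax and vehicle fibroblasts, a ratio of 1.28 (1.21 to 1.35), which was 1.06 after thinning. Des (chromosome 1, 75360329 to 75368579, plus strand) had 104 and 84.5 CPM, a ratio of 1.23 (1.16 to 1.30). Myl9 (chromosome 2, 156775420 to 156781658, plus strand) had 62.8 and 51.3 CPM, a ratio of 1.22 (1.14 to 1.32). These ratios lie on either side of the 25% line. Tpm1 (chromosome 9, 67022590 to 67049406, minus strand) had 347 and 315 CPM, a ratio of 1.10 (1.07 to 1.13).

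Cnn1 (chromosome 9, 22099216 to 22109630, plus strand) rested on 74 UMIs in navitoclax fibroblasts and 46 in vehicle fibroblasts, at a ratio of 1.75 (1.20 to 2.59). A navitoclax cell held 18 of the 74, and 3 cells held at least 50% of them. Without the top cell of each library the ratio was 1.45 (0.956 to 2.22), and after thinning it was 1.14 (0.566 to 2.30). The late smooth muscle genes gave small ratios with intervals that span 1, namely 1.11 (0.921 to 1.35) for Myh11, 1.14 (0.931 to 1.39) for Actg2 and 1.03 (0.857 to 1.246) for Lmod1. Without cells with 2 or more mural markers, Myh11 was at 0.703 and Lmod1 at 0.443, and without peribronchial-like cells Myh11 was at 0.816. With each cell gated alone, Myh11 was at 1.44 (1.17 to 1.77), Actg2 at 1.49 (1.19 to 1.87) and Lmod1 at 1.19 (0.975 to 1.45). More than 75% of the fibroblast UMIs of each of these genes lay in peribronchial-like cells of either library.

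**Figure D4:**
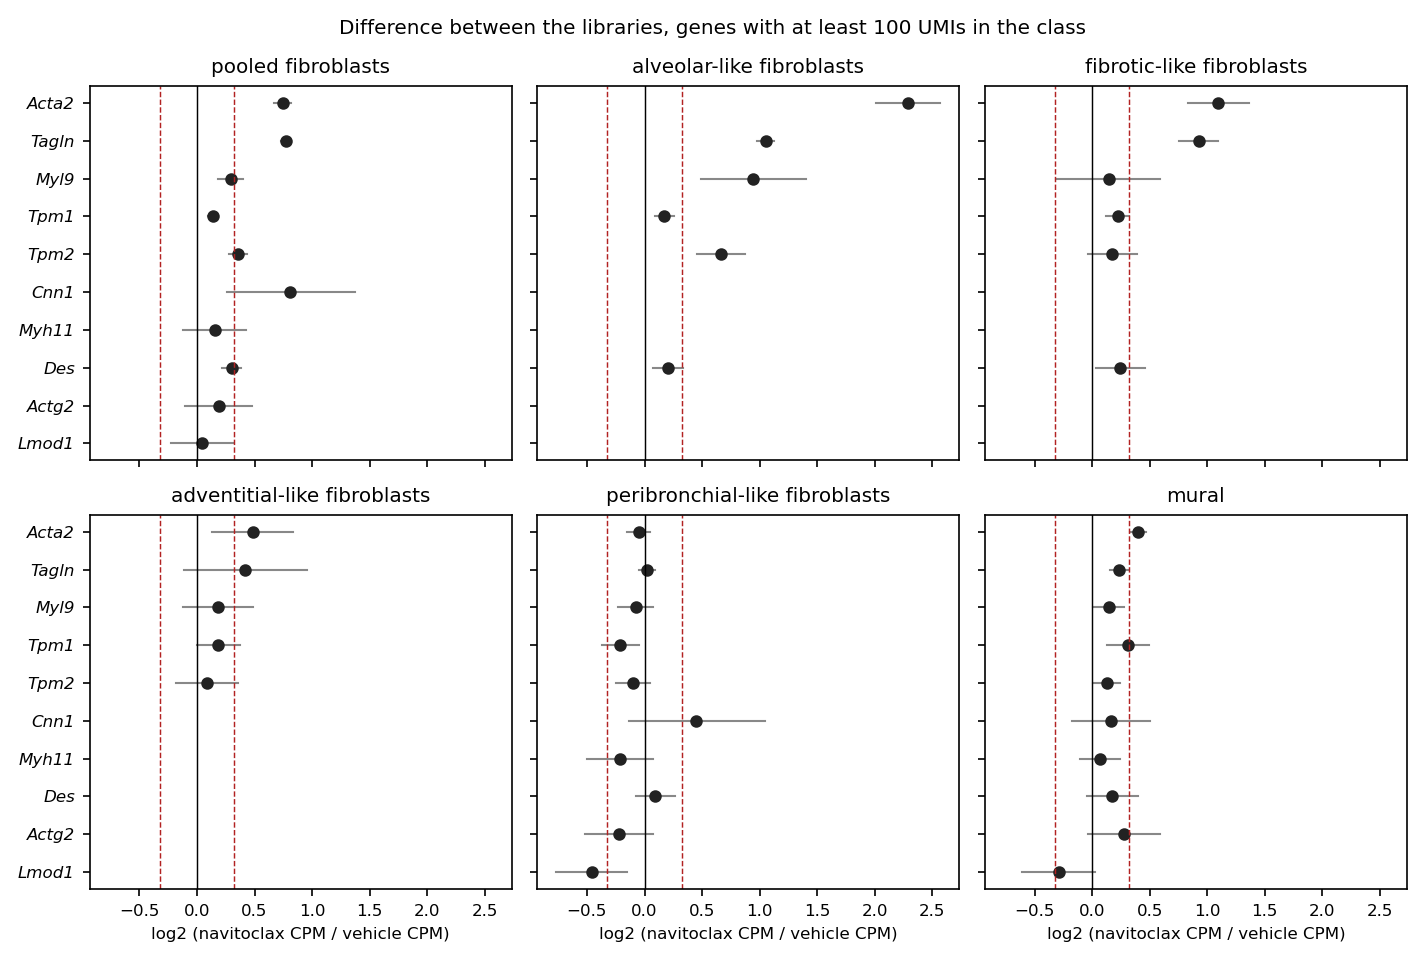
Log2 ratio of navitoclax CPM to vehicle CPM (x axis) for each gene (y axis) with at least 100 UMIs in the class, with conditional exact intervals of counting error, in 6 panels by class. Dashed lines mark a difference of 25%. Acta2 lies farthest to the right in alveolar-like fibroblasts, at a ratio of 4.87, and near 0 in peribronchial-like fibroblasts, at 0.965.

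Alveolar-like fibroblasts, the Tcf21 and Npnt class of the alveolar wall, showed the widest Acta2 difference of the named fibroblast classes at the main settings. Of 6 members with at least 100 UMIs, 4 were higher in the navitoclax library (Acta2, Tagln, Myl9 and Tpm2) and 0 were lower, against a background of 7.38% higher and 6.01% lower. After thinning, 2 were higher, Acta2 and Tagln, with no share of all genes at that depth given. The median log2 difference of the 6 was 0.80, against 0.00 over all genes tested. Acta2 had 61.2 CPM (56.2 to 66.6) in the navitoclax library and 12.6 CPM (10.5 to 14.9) in the vehicle library, a ratio of 4.87 (4.03 to 5.93). The level is lower than in the other named fibroblast classes of the vehicle library. In the navitoclax library it overlaps that of adventitial-like cells, 57.9 CPM (49.3 to 67.5).

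The Acta2 RNA of these cells was uneven. A navitoclax cell held 138 of the 543 UMIs (25.4%), and 6 cells held at least 50% of them, while in the vehicle library 30 cells held that part of 134 UMIs. Without the top cell of each library the ratio was 3.90 (3.18 to 4.805). The share of cells with a UMI was 5.97% (4.61 to 7.57) of navitoclax cells and 1.84% (1.21 to 2.69) of vehicle cells after thinning, and 15.8% and 6.59% before it. The ratio was 4.55 after thinning, 2.26 at a clustering resolution of 2 and 2.24 with each cell gated alone. At resolution 2 adventitial-like cells had a higher Acta2 ratio, 2.45, so the order of the classes was not kept there.

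Tagln in alveolar-like cells had 435 and 210 CPM in the navitoclax and vehicle libraries, a ratio of 2.07 (1.97 to 2.18), and its RNA was spread over many cells. At least 50% of its UMIs lay in 122 navitoclax cells and 160 vehicle cells. The thinned share was 43.4% (40.4 to 46.4) of navitoclax cells and 27.9% (25.6 to 30.3) of vehicle cells. Tpm2 had 50.6 and 32.0 CPM, a ratio of 1.58 (1.37 to 1.83), and Myl9 had 12.1 and 6.28 CPM, a ratio of 1.92 (1.40 to 2.65). The thinned shares of Tpm2, 7.10% and 6.23%, and of Myl9, 2.08% and 1.84%, have overlapping intervals. The Tpm2 ratio was 1.18 after thinning. The Myl9 ratio was 1.14 after thinning, 1.05 at resolution 2 and 1.12 with each cell gated alone.

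The libraries filled the alveolar-like clusters unequally. Cluster S1 held 161 navitoclax and 739 vehicle cells, S2 316 and 484, S3 547 and 119, and S10 59 and 129. Within each of the 4 clusters, Tagln was higher in the navitoclax library, with ratios of 1.86 (1.66 to 2.08), 2.36 (2.17 to 2.56), 1.94 (1.67 to 2.26) and 2.93 (2.16 to 4.01) in that order. Acta2 ratios were 2.33 (1.13 to 4.59) in S1, 5.83 (4.66 to 7.35) in S2 and 7.31 (2.43 to 36.0) in S3, the last on 99 and 3 UMIs, and 1.88 (0.614 to 5.73) in S10. With the 4 clusters weighted equally, a choice made after seeing the data, the ratio was 3.85 for Acta2, 2.27 for Tagln, 1.66 for Myl9 and 1.37 for Tpm2. Myl9 and Tpm2 were not higher throughout. Myl9 had a ratio of 0.696 (0.287 to 1.93) in S3, on 22 and 7 UMIs. Tpm2 had ratios of 0.684 in S1 and 0.919 in S3, and 2.10 (1.74 to 2.55) in S2, a cluster led by Wisp2, Npnt, Tnc and Ctgf.

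**Figure D5:**
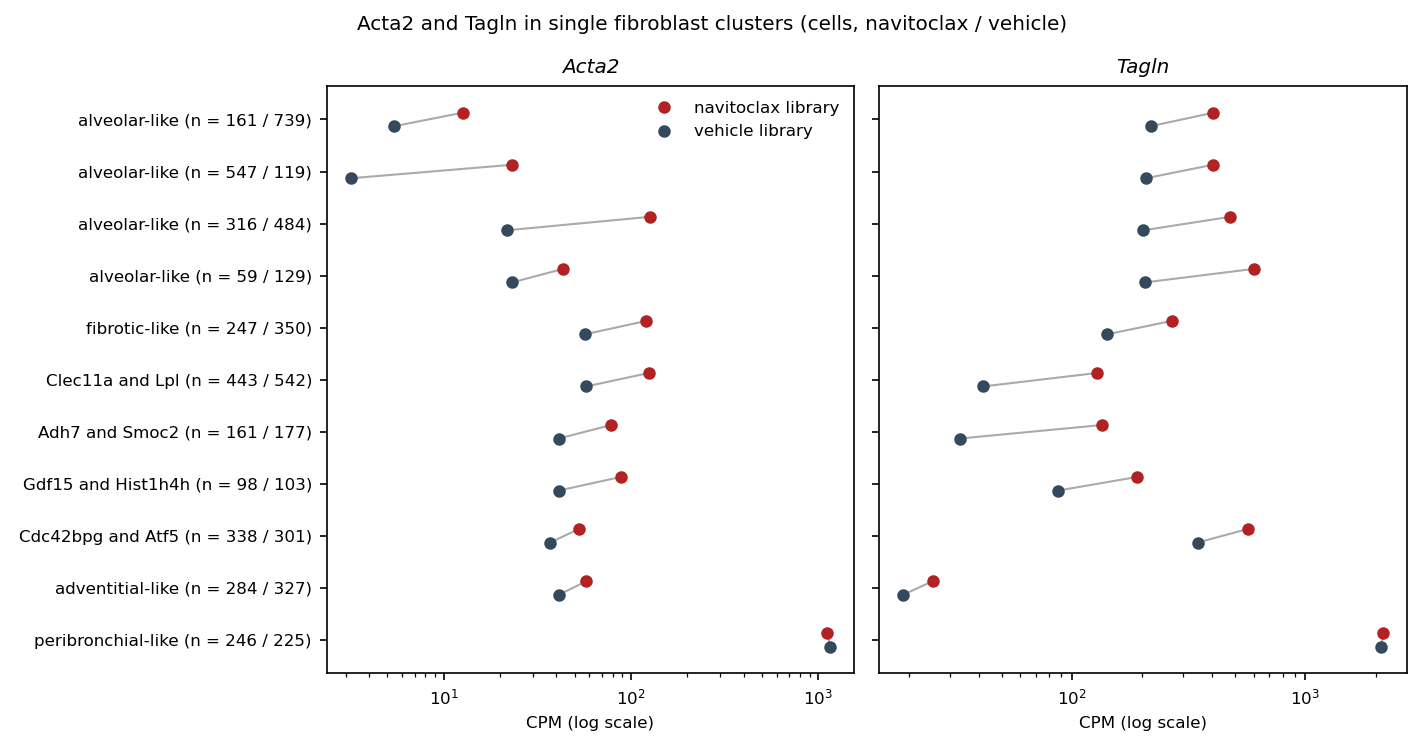
Acta2 (left) and Tagln (right) in CPM (x axis, log scale) in 11 of the 12 fibroblast clusters with at least 20 cells in each library (y axis, the shallow Neat1 and Palm2 cluster not drawn, number of navitoclax and vehicle cells in brackets), with navitoclax in red above vehicle in dark. Tagln is higher in the navitoclax library in every cluster drawn, by 1.02-fold in the peribronchial-like and by 4.07-fold in the Adh7 and Smoc2 cluster.

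Over the 12 fibroblast clusters with at least 20 cells in each library, Tagln had a ratio above 1 in 12, and the interval lay above 1 in 10. Acta2 had at least 20 UMIs in 10 clusters, with a ratio above 1 in 9 and an interval above 1 in 8. Some of the clusters carried no class name. A cluster led by Clec11a and Lpl, with 443 navitoclax and 542 vehicle cells, had 125 and 57.7 CPM of Acta2, a ratio of 2.17 (1.89 to 2.49). Its Tagln level was 129 CPM in the navitoclax library and 41.6 CPM in the vehicle library, a ratio of 3.09 (2.65 to 3.62). A cluster led by Adh7 and Smoc2 had 135 and 33.2 CPM of Tagln, a ratio of 4.07 (3.02 to 5.59). In a cluster led by Gdf15 and Hist1h4h, Myl9 had 45 UMIs in 98 navitoclax cells and 8 UMIs in 103 vehicle cells, a ratio of 5.15 (2.40 to 12.7).

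Fibrotic-like fibroblasts were a cluster led by Ltbp2, the member of the fibrotic marker list among its 10 leading genes. Of 6 members with at least 100 UMIs, 2 were higher in the navitoclax library, Acta2 and Tagln, and 0 were lower, against 8.02% higher and 8.85% lower among all genes. Acta2 had 121 and 56.5 CPM in the navitoclax and vehicle libraries, a ratio of 2.14 (1.78 to 2.57), which was 1.28 (0.823 to 1.98) after thinning. Of the 331 navitoclax UMIs, 5 cells held at least 50%, against 18 cells for 188 vehicle UMIs. The thinned shares of cells with an Acta2 UMI were 10.7% (7.08 to 15.2) and 10.9% (7.82 to 14.6), so the difference in CPM was not seen in the share of cells at this depth. Tagln had 268 and 141 CPM, a ratio of 1.90 (1.69 to 2.14), with 1 navitoclax cell holding 144 of the 735 UMIs. Without the top cell of each library the Tagln ratio was 1.61 (1.42 to 1.82), and without cells with 2 or more mural markers it was 2.93. The summed markers that name the class differed as well, at 1354 CPM in the navitoclax library and 4253 CPM in the vehicle library, and their part in these values was not tested. The class also carried all 8 alveolar fibroblast markers, at a sum of 9679 CPM in navitoclax and 11107 CPM in vehicle cells.

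In pooled fibroblasts the CPM of Cthrc1, a marker of collagen-rich fibrotic fibroblasts, differed in the other direction from that of Acta2. It had 4.10 CPM in navitoclax fibroblasts and 7.35 CPM in vehicle fibroblasts, a ratio of 0.558 (0.435 to 0.713). Col1a1, the main collagen chain, had 2238 and 1861 CPM, a ratio of 1.20 (1.19 to 1.22). Cells with a Cthrc1 UMI were 10 of 2690 in the navitoclax library and 19 of 3249 in the vehicle library after thinning. Acta2 was seen in 2 of the 10 navitoclax cells and 5 of the 19 vehicle cells, and in 12.3% and 8.51% of the cells without a Cthrc1 UMI.

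Adventitial-like fibroblasts, marked by Pi16 and Dpp4, had 5 members with at least 100 UMIs. Of these, Acta2 and Tagln were called higher in the navitoclax library and 0 were lower, against a background of 9.7% higher and 10.1% lower. Acta2 had 57.9 and 41.4 CPM, a ratio of 1.40 (1.10 to 1.79). Tagln had 71 and 55 UMIs, and its ratio of 1.34 (0.927 to 1.94) has an interval that spans 1. At a fold of 1.5 neither was called. Without the top cell of each library Acta2 was at 1.51 and Tagln at 1.59 (1.05 to 2.45), with Tagln then under 100 UMIs. Without cells with 2 or more mural markers Acta2 was at 1.92 and Tagln at 4.31 (1.54 to 14.9), both under 100 UMIs, and at resolution 2 Acta2 was at 2.45. Myl9, Tpm1 and Tpm2 had ratios from 1.06 to 1.14 with intervals that span 1, and Tpm1 was at 0.844 without cells with 2 or more mural markers.

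Peribronchial-like fibroblasts had the highest CPM of most members among the named fibroblast classes, with Acta2 and Tagln ratios near 1 at the main settings. Of 10 members, 1 was higher in the navitoclax library (Cnn1) and 1 lower (Lmod1), against a background of 10.4% higher and 9.22% lower. The median log2 difference was -0.09 over the members and 0.01 over all genes. Acta2 had 1116 and 1156 CPM in the navitoclax and vehicle libraries, a ratio of 0.965 (0.902 to 1.03), and Tagln had 2152 and 2118 CPM, a ratio of 1.02 (0.967 to 1.07). Myl9 stood at 0.947 (0.850 to 1.06), Tpm2 at 0.933 (0.844 to 1.03), Myh11 at 0.863 (0.709 to 1.05) and Actg2 at 0.857 (0.698 to 1.05). With 1 library a group, the difference between this class and the others has no test.

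Lmod1 (chromosome 1, 135324807 to 135368065, plus strand), leiomodin, which seeds actin filaments in smooth muscle, had 102 CPM in navitoclax and 141 CPM in vehicle peribronchial-like cells, a ratio of 0.728 (0.588 to 0.900). Its ratio lay between 0.629 and 0.817 over the 12 alternatives that gave a value, the highest at resolution 2, where it was not called. The call for Cnn1 rested on 68 and 41 UMIs, a ratio of 1.36 (0.912 to 2.06), with 1 navitoclax cell holding 18. Without the top cell of each library it was 1.11 (0.713 to 1.75), under the 25% line. It was 0.884 after thinning and 0.343 (0.145 to 0.754) with each cell gated alone, which turns its direction. Tpm1 had 392 and 453 CPM, a ratio of 0.865 (0.773 to 0.968), lower in the navitoclax library, whereas in the alveolar-like, fibrotic-like and mural cells it was higher, though below 1 under 1 alternative in each. Cthrc1 had 7 UMIs in navitoclax and 32 UMIs in vehicle cells of this class.

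In mural cells, 1 of 10 members was called higher in the navitoclax library, Acta2, and 0 were lower, against a background of 16.5% higher and 11.6% lower among the 837 genes with enough UMIs. With 10 members, 1 call is near that background at the main settings, and more members passed the fold after thinning. The median log2 difference was 0.17 over the members and 0.03 over all genes tested, and 9 members had a ratio above 1. Acta2 had 15418 and 11697 CPM in the navitoclax and vehicle libraries, a ratio of 1.32 (1.26 to 1.38), and in smooth muscle-gated cells the ratio was also 1.32 (1.26 to 1.38). With each cell gated alone it was 1.24, under the 25% line. Tpm1 had 1902 and 1531 CPM, a ratio of 1.24 (1.09 to 1.41), and Tagln had 9623 and 8194 CPM, a ratio of 1.17 (1.11 to 1.24). Myh11 (chromosome 16, 14194535 to 14291372, minus strand) had 1908 and 1822 CPM, a ratio of 1.05 (0.927 to 1.18), and Actg2 (chromosome 6, 83512905 to 83536265, minus strand) had 673 and 556 CPM, a ratio of 1.21 (0.975 to 1.503). Lmod1 was the member below 1, at 532 and 651 CPM, a ratio of 0.817 (0.655 to 1.02).

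Single mural cells varied far more than the libraries did. In navitoclax mural cells 7 of 38 held at least 50% of the Acta2 UMIs, and in vehicle mural cells 7 of 45 did. The median cell stood at 12486 CPM of Acta2 in the navitoclax library and 7415 CPM in the vehicle library, and the highest cells at 41529 and 30826 CPM. The median depth of the class was 8167 UMIs in navitoclax cells and 5950 in vehicle cells, and the effect of this gap on the ratio was not tested apart from thinning, which gave 1.39. In the pericyte-gated cells Acta2 had 216 UMIs in 8 navitoclax cells and 120 UMIs in 11 vehicle cells, and Myh11 had 23 and 36 UMIs.

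Free RNA was read from cells that should lack the genes. In AT2-like cells Acta2 had 2.22 CPM (1.496 to 3.16) in the navitoclax library and 1.13 CPM (0.646 to 1.84) in the vehicle library, a ratio of 1.96 (1.04 to 3.85), and Tagln had 2.14 and 0.919 CPM, a ratio of 2.33 (1.18 to 4.89). This background is also higher in the navitoclax library. Navitoclax alveolar-like fibroblasts had 61.2 CPM of Acta2 and 435 CPM of Tagln, and vehicle ones had less of both. Their median depth was 7749 UMIs in navitoclax and 6917 in vehicle cells, against 18279 and 17044 in AT2-like cells. The same count of free RNA per cell is thus a larger CPM in the fibroblasts, and its part in their ratios was not tested. Cnn1, Myh11, Actg2 and Lmod1 were at 0.451 to 1.47 CPM in navitoclax alveolar-like cells and 0.0938 to 0.750 CPM in vehicle ones, with at most 13 UMIs each. Those values are of the order of the background in AT2-like or ciliated-like cells and are not read as expression. Tpm1 is no background gene, with 282 CPM in navitoclax and 322 CPM in vehicle AT2-like cells, a ratio of 0.876 (0.839 to 0.914). In AT1-like cells Tpm2 had 107 UMIs in 52 navitoclax cells and 101 UMIs in 139 vehicle cells, at 192 and 69.6 CPM, a ratio of 2.76 (2.08 to 3.66).

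The wider contractile machinery was described with 54 genes in 6 lists. In pooled fibroblasts 50 had at least 100 UMIs, of which 8 were called higher in the navitoclax library and 0 lower, against the 6.66% and 4.33% of all genes, and the median log2 difference was 0.13. In the thin filament list 3 of 9 were higher. These were Tpm4, a cytoskeletal tropomyosin, at 245 and 186 CPM and a ratio of 1.32 (1.27 to 1.37), Actg1 at 1.27 (1.248 to 1.29) and Actb at 1.26 (1.24 to 1.27), the cytoplasmic actins. Of the myosin motor and light chains, 1 of 5 was higher, Myl6, with a ratio of 1.28 (1.26 to 1.30). Of the adhesion and dense body genes 2 of 18 tested were higher. Of the 4 tested calcium and channel genes 0 were.

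The lowest genes of the wider lists in pooled fibroblasts did not pass the fold. Ppp1r14a, an inhibitor of myosin phosphatase, had 631 CPM in navitoclax and 734 CPM in vehicle fibroblasts, a ratio of 0.860 (0.842 to 0.878). Nexn, an actin-binding protein, stood at 0.875 (0.838 to 0.912), Fhl1 at 0.905 (0.890 to 0.921) and the integrin Itga8 at 0.912 (0.891 to 0.934). Among SRF and its coactivators, 2 of 6 passed the fold, Myocd and Fhl2, chosen for mention after their values were seen. Myocd, myocardin, had 59 and 48 UMIs and a ratio of 1.34 (0.899 to 2.001), and Fhl2 had 72 and 60 UMIs and a ratio of 1.31 (0.915 to 1.87).

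In alveolar-like fibroblasts, 10 of 45 tested genes of the wider lists were higher and 1 lower, against 7.38% and 6.01% of all genes. In the thin filament list 4 of 9 were higher, and of the calcium and channel genes 2 of 4. In mural cells, 7 of 36 were higher and 4 lower, near the 16.5% and 11.6% of all genes. The highest by the near bound of the interval were Actn1, alpha-actinin, at 468 CPM in navitoclax and 291 CPM in vehicle mural cells, a ratio of 1.61 (1.21 to 2.14), and Csrp2, a LIM protein of smooth muscle, at 1.49 (1.19 to 1.86). Actb stood at 1.17 (1.10 to 1.247) and Tagln2 at 1.38 (1.08 to 1.76). The lowest were Ppp1r12b, a myosin phosphatase subunit, at 0.641 (0.428 to 0.951), Svil at 0.739 (0.558 to 0.976) and Pdlim7 at 0.691 (0.485 to 0.981).

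The members resembled each other in pattern. Over 32 values, from 16 classes in each library, Pearson's r of log2(CPM + 5) between pairs of members ran from 0.66 (Tpm1 with Des) to 0.98 (Myh11 with Actg2). The points share their libraries and differ in depth, so r is a description. Outside the set, Actc1, cardiac actin, was the gene most like Cnn1 (r = 0.99) and Myh11 (r = 0.96), and Ntrk3 was the most like Actg2 (r = 0.96) and Lmod1 (r = 0.96). Ntrk3 is on the smooth muscle marker list that named and gated the mural cells, so its r is partly set by the classing. Acta2 was nearest to Atp1b2 (r = 0.93), Myl9 to Cd109 (r = 0.93), Tpm2 to Filip1l (r = 0.93), and Tagln and Des to Gucy1b3 (r = 0.90 and 0.92). Tpm1 was nearest to Pbxip1 (r = 0.86). Actin genes are near-identical in coding sequence, and the part of reads shared among them was not tested.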

How the data were processed

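Lungs were digested, epithelial and stromal cells were sorted and mixed, and 1 library per group was made with a Chromium 3′ kit, per the labels' protocols. The deposited values are raw UMI counts per gene and cell barcode, made by the authors with Cell Ranger 4.0.0, per the file headers, on mm10, per the submitters' processing notes. From these, barcodes passed a minimum of 500 genes and a limit of 15% mitochondrial counts (6445 of 8064 navitoclax and 7396 of 8784 vehicle barcodes), and 217 and 222 doublets called by Scrublet at an expected rate of 6% were removed. Cells were clustered with scanpy 1.11.5 and leidenalg 0.10.2 (2000 variable genes, 30 components, 15 neighbours, resolution 1), leaving out the 10 members and 54 related genes. Clusters were named from marker lists at a score of at least 0.5, a rule set after the data were seen, as was the gate that splits mural cells. A difference from the authors' own cell names may come from this rebuilding. Free RNA was not subtracted.

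UMIs were summed per class and library. CPM has exact Poisson, ratios conditional exact and shares Clopper-Pearson intervals, at 95%, which cover counting error only. No test was made, as there is 1 library per group. A ratio was called at a fold of 25% in genes with at least 100 UMIs in the class. A limit for a gene at 0 is 3 counts of the total. Ratios were tested before use on simulated Poisson totals at whole-library depth, the model that the intervals assume. That check does not cover spread between cells. The named genes are all members, up to 4 highest and 4 lowest of the related lists by the near bound of the interval, the most alike gene by r among those with at least 500 UMIs, and Cthrc1, Col1a1 and Hspa1a. Members and lists were chosen with earlier results of these data known. The result of 1 of the related lists is not reported here.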

Additional observations from a re-analysis of the deposited data

Results flagged for a closer look

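Tpm1, an alpha-tropomyosin, had ratios on both sides of 1 between classes. Its navitoclax to vehicle ratio was 1.13 in alveolar-like fibroblasts, 1.17 in fibrotic-like fibroblasts and 1.24 in mural cells, with intervals above 1, against 0.865 in peribronchial-like fibroblasts, with an interval below 1. Each of the 3 was below 1 under an alternative, at 0.988 in alveolar-like, 0.991 in fibrotic-like and 0.995 in mural cells. With 1 library per group the difference between classes was not tested.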

How the results depend on the processing

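Of 595 values, from 47 ratios under 15 alternatives, 522 stayed inside the interval of the reported ratio and 70 fell outside it. Another 3, whose reported interval lay off 1, crossed to the other side. These were Tpm1 ratios, at 0.988 in alveolar-like fibroblasts with a clustering resolution of 2, 0.995 in mural cells gated cell by cell, and 0.991 in fibrotic-like fibroblasts thinned to 2000 UMIs. The cause was not tested. A fold of 1.5 and no minimum of UMIs change the calls alone, not the ratios. All 47 ratios therefore stayed inside their interval by construction under each of these settings. Ratios whose interval spanned 1 also crossed it, such as Cnn1 in peribronchial-like cells and Myh11 and Lmod1 in pooled fibroblasts. The pooled fibroblast ratio of Acta2 was 2.03 with each cell gated alone, 2.50 without cells with 2 or more mural markers, 1.42 after thinning and 2.42 without peribronchial-like cells, the last chosen after seeing the data. In mural cells it was 1.24 with each cell gated alone and 1.39 after thinning. The shares of all genes called, given above, hold for the main settings alone. The counts of called members that follow have no such share beside them, so they cannot be set against a background. With no minimum of UMIs, members higher were 7 in alveolar-like and 4 in fibrotic-like cells, and lower 3 in adventitial-like cells. At a fold of 1.5, 0 were higher in adventitial-like, peribronchial-like and mural cells and 0 lower in peribronchial-like cells. Without the top cell of each library, 1 was higher in adventitial-like cells, where Tagln, at 1.59, had under 100 UMIs, and 0 in peribronchial-like cells. At resolution 2, 1 was higher in adventitial-like, 0 higher and 0 lower in peribronchial-like cells. With each cell gated alone, 0 were higher and 5 lower in peribronchial-like cells, and 0 higher and 1 lower in mural cells. Without cells with 2 or more mural markers, 0 were higher in adventitial-like cells, where Acta2, at 1.92, and Tagln, at 4.31, had under 100 UMIs. After thinning, 2 were higher in alveolar-like, 1 in adventitial-like, 0 in peribronchial-like and 4 in mural cells, and 2 were lower in peribronchial-like cells. A mitochondrial limit of 30% and keeping called doublets each gave 1 lower in mural cells. Over the alternatives Acta2 ran from 2.24 to 6.4 in alveolar-like cells and from 0.831 to 1.04 in peribronchial-like cells, and Tagln from 1.61 to 2.06 in pooled fibroblasts. Some alternatives gave no value for a class they left unnamed or too small. No paired analysis was possible because each group is 1 library.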
